A study of Xenopus laevis with 4 samples.

Results

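The animal cap and the vegetal explant of the Xenopus laevis gastrula were compared by the RNA measured on 1 array each. The genes described are those whose signal was 2-fold or more higher in 1 of these explants, 883 of the 4892 named genes that were measured and of 7531 on the array. All embryos of the series were at stage 10, and no mutant or treatment is named in the labels. The animal cap is the roof of the embryo around the animal pole, the vegetal explant comes from the yolky cells around the vegetal pole, and arrays of the dorsal and the ventral marginal zone complete the series of 4. The number of embryos pooled for an explant is not stated in the labels. With 1 array per explant there is no replicate check on any difference below, and no test was possible.

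Cells of the animal cap give rise to epidermis and nervous system, and vegetal cells give rise to endoderm. Vegetal cells also inherit RNAs that the egg stored at its vegetal cortex, among them the germ plasm that marks future germ cells, and they send the nodal signals that induce mesoderm in the belt between the poles. At this stage the outer layer of the cap is already a polarised epithelium, while vegetal cells are large, rich in yolk and divide more slowly.

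Probe sets entered the comparison when the higher of both explants reached 147, the median of all signals in the series, and signals under 24.7, the 20th percentile, were raised to that floor. Of 15491 probe sets, 8614 entered. A gap of 2-fold or more favoured the cap in 787 (9.14%) and the vegetal explant in 1011 (11.7%). After centring the arrays on their medians, 1098 were higher in the cap and 756 vegetally, a cap share of 59.2%, against 43.8% as deposited. Which side is longer therefore depends on the scaling. Gene names were at hand for 443 of the probe sets higher in the cap and 621 of those higher in the vegetal explant, and the other 344 and 390 carry no single gene name.

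Merged by gene, 4892 genes were measured. On the cap side were 356 (7.28%) and on the vegetal side 527 (10.8%), together 883 or 18%, and the median difference over all genes was -0.04 on the log2 scale of cap minus vegetal. The gaps were mostly modest, with a median fold of 2.84 among genes higher in the cap and 2.90 among genes higher vegetally. A 10-fold gap was reached by 42 genes on the cap side and 80 on the vegetal side. For 25 and 53 genes the lower explant lay at the floor, and their fold is given as "at least". Dim probe sets supplied many of the calls. Probe sets were split into 3 equal groups by their mean log2 signal over the 4 arrays. Of the dimmest, 11.1% were higher in the cap and 21.7% in the vegetal explant, against 7.04% and 4.21% of the brightest. That mean includes the arrays that made the calls, so the split is not independent of them. Because a probe set needed signal in only 1 explant, one that is dim in the other had to differ. The other explant lay under the entry level in 361 of the probe sets called for the cap and 596 of those called for the vegetal explant. The members closest to the limit were pafah1b2.L (254 in the cap, 127 in the vegetal explant) just inside and dbp.L (178 and 89.0) just outside it. On the vegetal side they were plekhn1.L (2122 in the cap, 4245 in the vegetal explant) just inside and irf2.S (206 and 411) just outside.

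Most measured markers of both explants lay on the sides their labels give. Of 26 ectoderm markers on the array 23 were measured, 18 of them higher in the cap and 2, both copies of zic2, vegetally. The sums given here run over all probe sets of the markers on the array, also those that did not enter. For ectoderm they were 77220 in the cap and 13730 in the vegetal explant. All 21 measured endoderm markers, of 25 on the array, were higher vegetally, with sums of 924 in the cap and 54495 vegetally. A marker dim in the cap entered only through its vegetal signal, so the entry rule itself favoured such calls, here and for the markers below. RNA of markers of neighbouring territories was also present in the vegetal explant. Whether it came from those territories was not tested. All 11 measured organizer markers, of 15 on the array, were higher vegetally than in the cap. The organizer sums were 824 in the cap, 25407 vegetally and 31922 in the dorsal marginal zone. So were all 4 measured mesoderm markers, of 15 on the array, higher vegetally than in the cap. The mesoderm sums were 673 in the cap, 6025 vegetally, 11218 dorsally and 10504 ventrally. The part of that RNA in the lists below was not tested. As in any bulk sample, fewer cells of a type and less RNA per cell cannot be told apart. The hybridisation controls differed by -0.06 on the log2 scale (SD 0.09 over 9 control probe sets, cap minus vegetal). The 3′ to 5′ signal ratio of the GAPDH control was 4.45 in the cap and 5.85 in the vegetal explant, the highest of the 4 arrays, and that of β-actin was 0.679 and 0.711. The part of RNA quality in the differences was not tested.

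By role, 14% of 200 measured genes in the transcription lists were higher in the cap and 32% in the vegetal explant, both above the shares over all genes. These lists are mostly of transcription factors, but that of nuclear receptors also holds enzymes of retinoid metabolism. Among 292 genes of signalling pathways the shares were 11.3% and 17.8%. Translation genes were at the other end, with 2.67% and 0.667% of 150. The entry rule bore unequally on these roles. Of the homeobox genes 48 of 129 on the array entered, but 129 of 135 ribosomal protein and translation factor genes did. A dim gene entered only through the explant where it was high, and the part of this in the contrast between roles was not tested. The plot of the function lists shows how the calls divide, list by list. Lists and their medians are descriptions of these 2 arrays. Each list's counts are to be read beside the shares over all genes, 7.28% in the cap and 10.8% in the vegetal explant. Equal counts on both sides are therefore not the background. A list's counts with centred arrays are given where they differ by more than 1.5 times.

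**Figure D1:**
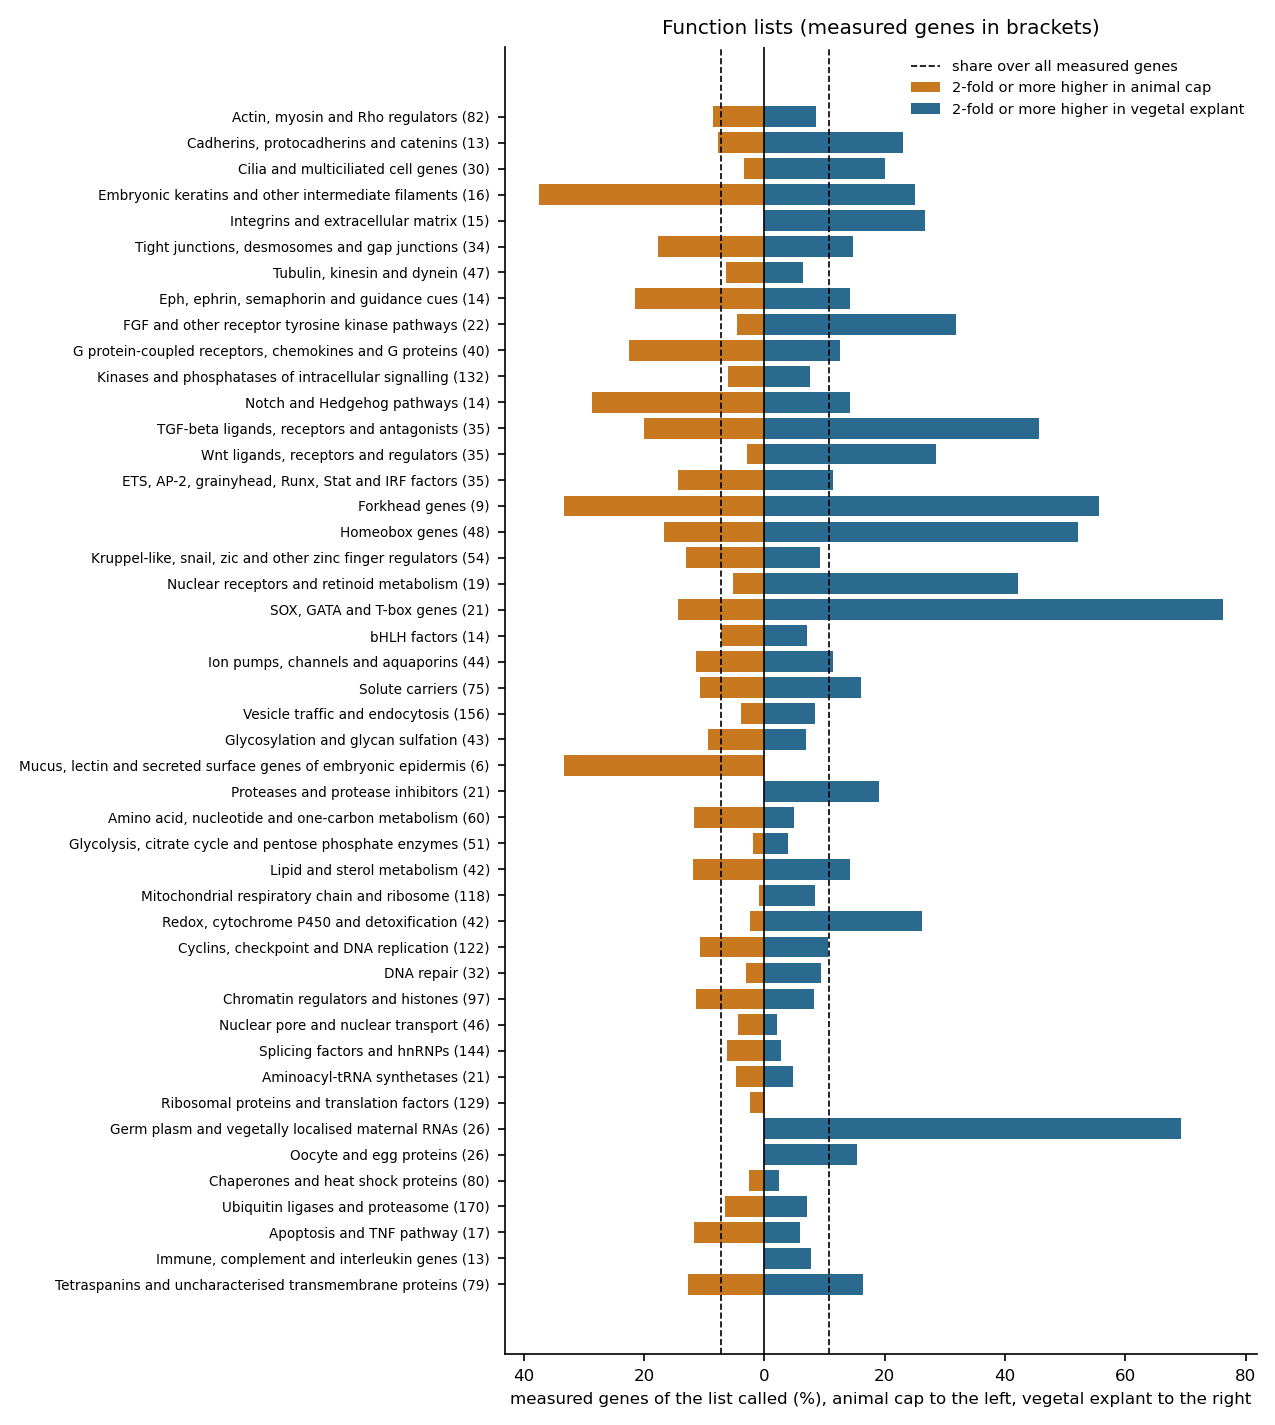
Share of the measured genes of each of 46 function lists that were 2-fold or more higher in the animal cap (bars to the left) or in the vegetal explant (bars to the right), in percent. Dashed lines mark the shares over all measured genes, 7.28% and 10.8%; the SOX, GATA and T-box list and the germ plasm list reach furthest to the vegetal side, and the keratin list furthest to the cap side.

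Genes that build epithelial sheets lay on both sides, with different members on each. Keratins form the intermediate filaments of epithelial cells, and 16 of 33 genes of the filament list were measured. Of these 6 were higher in the cap and 4 in the vegetal explant, with a list median of 0.02. Keratin genes made up the whole cap side. The 4 probe sets of krt70.S ranged between 3980 and 15707 in the cap and between 1.06 and 35.4 in the vegetal explant, so that each was at least 161-fold apart. Its copy krt70.L had 1154 in the cap and lay under the floor in the vegetal explant, a gap of at least 46.7-fold. Both copies therefore belonged to the cap side.

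The vegetal side held the simple-epithelium keratin krt18.1 in both copies. The krt18.1.L signal was 2446 in the cap and 7719 in the vegetal explant, with 4333 dorsally and 2827 ventrally. The copy krt18.1.S had 461 in the cap and 1442 in the vegetal explant, and the folds of 3.16 and 3.13 were nearly the same. Vimentin, the filament protein of mesenchymal and neural progenitor cells, split by copy: vim.S had 62.8 in the cap and 172 in the vegetal explant, while vim.L had 734 in the cap and 411 in the vegetal explant.

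Of 34 measured genes for tight junctions, desmosomes and gap junctions, 6 were higher in the cap and 5 in the vegetal explant (list median 0.22), or 6 and 2 with centred arrays. On the cap side, envoplakin (evpl.L), a plakin of the cornified envelope of skin, had 212 in the cap and 44.0 in the vegetal explant. The claudin gene cldn4.L, which seals tight junctions, had 8186 in the cap and 2084 in the vegetal explant, and the tight junction scaffold tjp3.L had 577 and 235. On the vegetal side the gap junction gene gjb2.L was 54.3-fold higher, with 92.7 in the cap, 5035 in the vegetal explant, 4145 dorsally and 1243 ventrally. The desmosomal cadherin dsc3.S had 26.7 in the cap and 363 in the vegetal explant, with 41.1 dorsally and 71.8 ventrally. Thus gjb2.L was also high dorsally, while dsc3.S was high on the vegetal array alone.

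Classical cadherins, the calcium-dependent adhesion molecules, were divided by type. The E-cadherin gene cdh1.S was 11.2-fold higher in the cap, with 446 in the cap, 39.7 in the vegetal explant, 167 dorsally and 372 ventrally. The N-cadherin gene cdh2 was higher in the vegetal explant in both copies. Its cdh2.L probe set that entered had 29.0 in the cap, 166 in the vegetal explant, 152 dorsally and 78.6 ventrally. The copy cdh2.S had 68.4 in the cap, 154 in the vegetal explant, 250 dorsally and 111 ventrally, so it was highest dorsally. A further 2 dim probe sets of cdh2.L did not enter. Over the list of 13 measured cadherin and catenin genes 1 was higher in the cap and 3 in the vegetal explant, or 1 and 2 with centred arrays.

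No gene of the integrin and matrix list was called for the cap, and 4 of 15 measured members were called for the vegetal explant (median -0.75). Only 15 of the 70 genes of that list on the array entered. The versican gene vcan.L, which encodes a large matrix proteoglycan, had 27.7 in the cap, 291 in the vegetal explant, 243 dorsally and 145 ventrally. The fibronectin receptor subunit itga5.L had 1002 and 29.7 in the cap on its probe sets, against 2911 and 220 in the vegetal explant. Its copy itga5.S stayed dim in both explants.

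Actin regulators had 7 of 82 measured genes on either side, or 11 in the cap and 6 in the vegetal explant with centred arrays. The calponin gene cnn2, which stabilises actin filaments, led the cap side in both copies. The signal of cnn2.S was 957 in the cap and 48.5 in the vegetal explant, and cnn2.L had 208 in the cap and lay under the floor vegetally. Tropomyosin tpm1.L, which also coats actin filaments, had 231 in the cap and 30.3 in the vegetal explant. The largest vegetal gaps belonged to effectors of the small GTPase Cdc42. The gene cdc42ep4.S had 87.7 in the cap and 1128 in the vegetal explant. A second effector, cdc42ep2.L, had 320 in the cap and 1931 in the vegetal explant, with 825 and 877 in the marginal zones. For tubulin and its motors 3 of 47 measured genes were called on either side, and all 6 gaps were at most 2.5-fold.

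Secreted signals and their receptors also divided by family. In the TGF-beta list 7 of 35 measured genes were higher in the cap and 16 in the vegetal explant (median -0.88). The cap members included a ligand of the BMP branch, bmp7.2.L, with 4890 in the cap, 621 in the vegetal explant, 3564 dorsally and 4653 ventrally. They also included both copies of tgif2, a homeobox corepressor of Smad-driven transcription. The tgif2.S signal was 1642 in the cap and 305 in the vegetal explant, and that of tgif2.L was 1646 in the cap and 703 in the vegetal explant. Another BMP ligand, bmp2, chosen after its values were seen, lay on the opposite side from bmp7.2.L. Its copies had 71.4 (bmp2.L) and 103 (bmp2.S) in the cap and were 7.57-fold and 6.37-fold higher in the vegetal explant.

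Of 35 measured Wnt pathway genes 1 was higher in the cap and 10 in the vegetal explant (median -0.38). The cap member was the secreted Frizzled-related gene sfrp2.S, with 6211 in the cap, 2113 in the vegetal explant, 5864 dorsally and 3077 ventrally. The vegetal side held ligands, receptors and antagonists together. Chosen after their values were seen, the ligand genes wnt11b.L (18.5-fold) and wnt5a.S (5.79-fold) and the receptor gene ror2.L (at least 10.6-fold) were among them. The cytoplasmic gene prickle1, also chosen so, was called in 1 copy: prickle1.S had 743 in the cap and 2840 in the vegetal explant, and prickle1.L had 1320 and 1163. The Wnt antagonist dkk1.S had 27.2 in the cap and 241 in the vegetal explant, and reached 322 in the dorsal marginal zone.

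Receptor tyrosine kinase pathways had 1 of 22 measured genes higher in the cap and 7 in the vegetal explant (median -0.57). The PDGF receptor gene pdgfra.L lay under the floor in the cap on both probe sets, with 567 and 729 in the vegetal explant. The FGF receptor gene fgfr4 was called in both copies. Its fgfr4.L probe sets had 139 and 618 in the cap and 479 and 2570 in the vegetal explant, and fgfr4.S had 234 in the cap and 639 in the vegetal explant. On the marginal zone arrays all 3 fgfr4 probe sets were near the cap level or under it: fgfr4.S had 182 dorsally and 168 ventrally. The FGF feedback inhibitor spry2.S had 35.4 in the cap and 174 in the vegetal explant.

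The ephrin ligand genes that were called lay on opposite sides. The ephrin receptor gene epha2.L had 559 in the cap and 138 in the vegetal explant, and its highest signal of 985 in the dorsal marginal zone. The ligand gene efna4.L had 4907 in the cap and 1927 in the vegetal explant. A second ligand gene of the same class, efna1.L, had 359 in the cap, 2400 in the vegetal explant, 368 dorsally and 736 ventrally. Of 14 measured guidance genes 3 were higher in the cap and 2 in the vegetal explant.

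In the Notch and Hedgehog list, 4 of 14 measured genes were higher in the cap and 2 in the vegetal explant (median 0.22). The Notch ligand gene jag1.L had 1634 in the cap and 478 in the vegetal explant, and gli3.L, a transcription factor of the Hedgehog pathway, had 169 and 45.4. Genes of the hairy and enhancer of split family, which are repressors often switched on by Notch, lay on both sides. The hes5.10.L signal was 571 in the cap and under the floor vegetally, a gap of at least 23.1-fold. The hes7.2.L probe sets had 94.8 and 106 in the cap and 268 and 245 in the vegetal explant, and were higher still in the marginal zones, between 677 and 814.

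G protein-coupled receptors and their partners were called for the cap in 9 of 40 measured genes and for the vegetal explant in 5 (median 0.09). The largest cap gap belonged to ptafr.L, named for the receptor of platelet-activating factor, with 4080 in the cap, 113 in the vegetal explant, 2063 dorsally and 2364 ventrally. The orphan receptor genes raig4a and gprc5cl2.S behaved alike in their order over the arrays. The raig4a signal was 3664 in the cap, 107 in the vegetal explant and 1705 and 1710 in the marginal zones. That of gprc5cl2.S was 6102 in the cap, 249 in the vegetal explant and 2931 and 3211 in the marginal zones, while 2 of its 3 probe sets were dim on every array. The largest vegetal gaps were those of 2 receptors known from mesoderm and migrating cells. The apelin receptor gene aplnr.L had 87.6 in the cap and 518 in the vegetal explant, and 633 and 635 in the marginal zones. The chemokine receptor gene cxcr4.S had 717 in the cap and 3583 in the vegetal explant, while its copy cxcr4.L had 2881 and 3574.

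Of 48 measured homeobox genes 8 were higher in the cap and 25 in the vegetal explant (median -1.11), and of 21 SOX, GATA and T-box genes 3 and 16 (median -3.19). Only 48 of 129 homeobox genes on the array entered, and without any entry level the homeobox median was -0.07 and the SOX, GATA and T-box median -1.44. The 3 cap members of the SOX list were all SOX genes: sox2.L, sox3.S and sox15.L. The sox15.L signal was 3200 in the cap and 1209 in the vegetal explant, and sox3.S had 3017 and 523. The distal-less gene dlx3, a homeobox regulator of epidermal differentiation, was called in both copies. Its dlx3.L copy had 788 in the cap, 40.7 in the vegetal explant, 118 dorsally and 404 ventrally.

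Some known regulators of epidermal differentiation were on the cap side of the zinc finger list and of the list that joins ETS, AP-2 and grainyhead factors. The epidermal factor znf750 had 526 (znf750.L) and 584 (znf750.S) in the cap, against a signal under the floor and 34.7 in the vegetal explant. The Kruppel-like gene klf2.S had 165 and 309 in the cap and 29.4 and 87.1 in the vegetal explant. The AP-2 gene tfap2a.L, active in epidermis and neural crest, had 2569 in the cap, 335 in the vegetal explant, 651 dorsally and 1884 ventrally. In all 3 cases the ventral marginal zone was above the vegetal explant and closer to the cap. The largest cap gap of the joint list was that of an ETS gene, elf1.L, at least 112-fold. It had 2772 in the cap, a signal under the floor in the vegetal explant, 945 dorsally and 2087 ventrally. Its copy elf1.S had 165 in the cap and 207 in the vegetal explant.

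The vegetal side of these lists held other members, among them the snail, C/EBP, Kruppel-like and ETS genes below. The snail gene snai1.S, a repressor of E-cadherin in many animals, had 46.1 in the cap, 637 in the vegetal explant, 474 dorsally and 445 ventrally. The leucine zipper gene cebpa.L had 28.7 in the cap and 371 in the vegetal explant, and was highest ventrally at 830. The Kruppel-like gene klf6.L had 53.5 and 216 in the cap and 387 and 608 in the vegetal explant on the 2 probe sets that entered. The ETS gene ets1.S had 180 in the cap and 713 in the vegetal explant. Of 54 measured zinc finger regulators 7 (13%) were higher in the cap and 5 (9.26%) in the vegetal explant. Of 35 ETS, AP-2, grainyhead and related factors the counts were 5 (14.3%) and 4 (11.4%). Over all genes the shares were 7.28% and 10.8%.

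**Figure D2:**
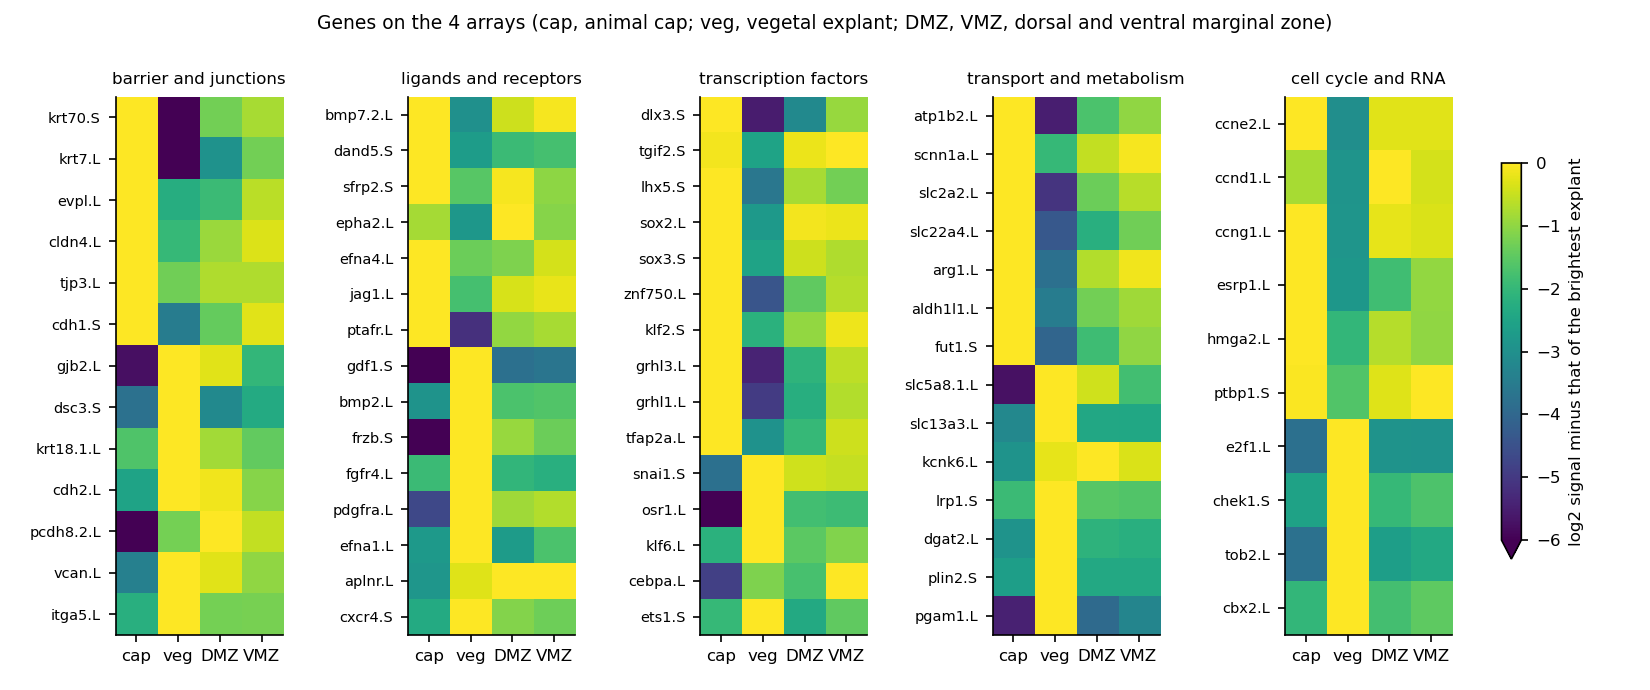
Signal of 67 genes on the arrays of the animal cap, vegetal explant, dorsal marginal zone and ventral marginal zone, as log2 signal minus that of the gene's brightest explant, after the floor; the genes were chosen for the plot after their values were seen. Columns run from cap to ventral marginal zone; the vegetal array is the lowest for all 36 cap genes plotted, and both marginal zones lie between the poles for 25 of 31 vegetal genes.

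Transport across the cell surface showed different carriers at the poles. Of 75 measured solute carriers 8 were higher in the cap and 12 in the vegetal explant (11 and 9 with arrays centred on their medians). The glucose transporter gene slc2a2.L had 1060 in the cap, 30.7 in the vegetal explant, 418 dorsally and 684 ventrally. The organic cation transporter gene slc22a4.L had 1521 in the cap, 74.9 in the vegetal explant, 328 dorsally and 618 ventrally. The sodium-coupled monocarboxylate carrier gene slc5a8.1.L lay under the floor in the cap and had 1311 in the vegetal explant, 967 dorsally and 369 ventrally. The dicarboxylate carrier gene slc13a3.L had 60.6 in the cap and 558 in the vegetal explant, but 105 and 103 in the marginal zones.

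Ion pumps and channels had 5 of 44 measured genes called on either side, or 6 in the cap and 3 in the vegetal explant with centred arrays. The sodium pump subunit gene atp1b2.L had 2648 in the cap, 58.5 in the vegetal explant, 820 dorsally and 1326 ventrally, and the epithelial sodium channel subunit gene scnn1a.L had 522 in the cap, 132 in the vegetal explant, 354 dorsally and 492 ventrally. Another subunit gene of that channel, scnn1b.S, chosen after its value was seen, had 200.1 in the cap and 406 in the vegetal explant. The proton pump accessory gene atp6ap2.L had 1343 in the cap and 303 in the vegetal explant, while its copy atp6ap2.S was dim in both. On the vegetal side the potassium channel gene kcnk6.L had 27.1 in the cap and 176 in the vegetal explant. The membrane-bound carbonic anhydrase gene ca12.L had 1013 in the cap and 2642 in the vegetal explant.

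Of 156 measured vesicle traffic genes 3.85% were higher in the cap and 8.33% in the vegetal explant, and with centred arrays the counts were 11 and 8 instead of 6 and 13. The endocytic receptor gene lrp1.S had 397 and 1066 in the cap and 2425 and 2508 in the vegetal explant on its probe sets, whose folds of 6.11 and 2.35 differed. The annexin gene anxa2.L, a membrane-binding protein, had 41.0 in the cap and 192 in the vegetal explant, against 163 and 201 for anxa2.S. Its copies thus differed in the size of the gap.

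No measured protease or inhibitor gene of 21 was higher in the cap, and 4 were higher vegetally, or 1 and 3 with centred arrays. Among the 4 was the broad protease inhibitor gene a2m.S with 211 in the cap, 3741 in the vegetal explant, 3391 dorsally and 1296 ventrally. The lysosomal protease gene ctsc.L had 359 in the cap and 1362 in the vegetal explant, near the cap level in both marginal zones. Fucosyltransferase gene fut1.S, which adds fucose to surface glycans, had 495 in the cap and 30.3 in the vegetal explant. Of the uroplakins, plaque proteins of apical membranes, upk1b.S had 412 in the cap and 54.1 in the vegetal explant, and upk1a.S had 4983 and 1135. The copy upk1b.L, with 395 in the cap and 214 in the vegetal explant, did not reach 2-fold. Only 6 of 31 genes of the surface list of embryonic epidermis entered.

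Of 309 measured metabolic genes 4.85% were higher in the cap, under the 7.28% over all genes. The vegetal share of 10.4% was near the 10.8% over all genes. Within amino acid, nucleotide and one-carbon metabolism 7 of 60 measured genes were higher in the cap and 3 in the vegetal explant (median 0.16). Consecutive enzymes of the urea cycle were among the cap genes. Arginase (arg1.L), which splits arginine into urea and ornithine, had 929 in the cap, 67.2 in the vegetal explant, 573 dorsally and 849 ventrally. Argininosuccinate lyase (asl.L), which makes arginine, had 671 in the cap and 160 in the vegetal explant. The folate enzyme gene aldh1l1.L had 760 in the cap and 68.5 in the vegetal explant, while another folate enzyme gene, mthfs.L, had 135 in the cap and 475 in the vegetal explant.

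Of 42 measured lipid and sterol genes 5 were higher in the cap and 6 in the vegetal explant. The lipid droplet gene cidea.L, in no list and chosen after its value was seen, had 1783 in the cap and 756 in the vegetal explant. Its copy cidea.S had 149 in the cap and 228 in the vegetal explant, a gap under 2-fold the other way. The triglyceride and perilipin genes below were on the vegetal side. The enzyme gene dgat2.L, which makes triglyceride, had 264 in the cap, 1982 in the vegetal explant, 459 dorsally and 429 ventrally. Perilipin 2, a coat protein of lipid droplets, was called in both copies: plin2.S had 412 in the cap and 2550 in the vegetal explant, and plin2.L had 556 and 2797. The acyl-CoA ligases split between the poles. The acsl4.S signal was 582 in the cap and 116 in the vegetal explant, whereas both copies of acsl1, chosen after their values were seen, were 3.37-fold (acsl1.L) and 4.11-fold (acsl1.S) higher vegetally. The chain elongase gene elovl7 was on the cap side in both copies, at 2.79-fold and 2.62-fold.

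Of 51 measured genes of glycolysis and the citrate cycle 3 were called, and 2 of them were the copies of pgam1, a phosphoglycerate mutase. The pgam1.L signal was 85.9 in the cap and 3769 in the vegetal explant, and that of pgam1.S was 1327 and 6988. The third, pdk4.S, which restrains pyruvate use by mitochondria, had 284 in the cap and 101 in the vegetal explant. Over the whole list the median was 0.04. In the redox and cytochrome P450 list 1 of 42 measured genes was higher in the cap and 11 in the vegetal explant (median -0.08), or 2 and 7 with centred arrays. The peroxiredoxin gene prdx5.L had 159 in the cap and 544 in the vegetal explant, and cyp27c1.S had 52.9 and 305 and was highest dorsally at 525. Mitochondrial genes had 1 of 118 called for the cap and 10 for the vegetal explant, or 4 and 5 with centred arrays. The import gene timm8b.S led with 92.8 in the cap and 1449 in the vegetal explant, while timm8b.L had 618 and 490.

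Genes of the cell cycle had 13 of 122 called on either side. That was 10.7% each way, against 7.28% in the cap and 10.8% in the vegetal explant over all genes. With centred arrays the counts were 22 in the cap and 7 in the vegetal explant. The cyclin E gene ccne2.L, of the step into S phase, had 204 in the cap and lay under the floor in the vegetal explant, a gap of at least 8.26-fold. The gene ccng1.L, for the atypical cyclin G1, had 768 in the cap and 104 in the vegetal explant, with 662 and 608 in the marginal zones. The cyclin D gene ccnd1.L had 918 in the cap and 210 in the vegetal explant, while ccnd1.S had 344 and 345. The vegetal side was led by a factor of S phase entry and by genes that restrain division. The transcription factor gene e2f1.L had 240 in the cap, 3309 in the vegetal explant, 440 dorsally and 432 ventrally. The antiproliferative gene tob2.L had 35.9 and 115 in the cap and 504 and 1481 in the vegetal explant, with gaps of 14.0-fold and 12.9-fold on its probe sets. The checkpoint kinase gene chek1.S had 176 and 38.3 in the cap and 1124 and 202 in the vegetal explant. For e2f1.L, tob2.L and chek1.S alike the marginal zones were much closer to the cap than to the vegetal explant.

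Of 97 measured chromatin genes 11 were higher in the cap and 8 in the vegetal explant (median 0.18), and of 144 splicing factors and hnRNPs 9 and 4 (median 0.24). The epithelial splicing regulator esrp1.L, which sets exon choice in epithelial cells, was the largest of the splicing list, with 1534 in the cap, 217 in the vegetal explant, 430 dorsally and 778 ventrally. The polypyrimidine tract binding gene ptbp1.S had 2285 in the cap and 754 in the vegetal explant. The chromatin architecture gene hmga2.L had 736 in the cap and 180 in the vegetal explant, and the histone H4 methyltransferase gene kmt5a.S had 304 and 79.9, while kmt5a.L had 978 and 923. On the vegetal side the Polycomb gene cbx2.L had 66.4 in the cap and 271 in the vegetal explant, and the egg chaperone of histones npm2.L had 1438 and 3239. With centred arrays the splicing counts were 17 and 1 and the chromatin counts 16 and 3.

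Of 129 measured ribosomal protein and translation factor genes 3 were higher in the cap and none in the vegetal explant, or 13 and none with centred arrays. The elongation factor gene eef1a1o split by copy: eef1a1o.S had 7833 in the cap and 2423 in the vegetal explant, and eef1a1o.L had 1577 and 2503. Of 80 measured chaperone genes 2 were called on either side, or 6 in the cap and 1 in the vegetal explant with centred arrays.

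The lists of maternal RNAs differed in their vegetal share. Of 26 measured oocyte and egg genes none was higher in the cap and 4 in the vegetal explant (median -0.47). That vegetal share of 15.4% was near the 10.8% over all genes, and with centred arrays the count was 2. The 4 genes had folds between 2.17 and 3.07. They included the zona pellucida gene zpd.L, with 458 in the cap and 1221 in the vegetal explant, and the RNA helicase gene ddx6.L, with 115 and 354. In the germ plasm and vegetal RNA list 18 of 26 were vegetal and none was in the cap (median -2.48). Of these 18, 15 had both marginal zones nearer to the cap than to the vegetal explant on the log2 scale.

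Of 170 measured genes of ubiquitin ligases and the proteasome 11 were higher in the cap and 12 in the vegetal explant, or 20 and 11 with centred arrays. The RING finger gene rnf222.L had 1322 in the cap, 27.7 in the vegetal explant and 623 and 709 in the marginal zones. The AP-2 inhibitor gene kctd15.L had 716 in the cap, 27.0 in the vegetal explant, 222 dorsally and 641 ventrally, the same order of arrays as tfap2a.L. Vegetally, rnf103.L lay under the floor in the cap and had 346 in the vegetal explant, while rnf103.S had 400 and 500. In the list for apoptosis and the TNF pathway, traf4.S had 263 in the cap and lay under the floor in the vegetal explant. The caspase gene casp10.L of that list had 179 and 53.4.

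Intracellular kinases and phosphatases had 8 of 132 called for the cap and 10 for the vegetal explant, or 13 and 8 with centred arrays. The kinase gene akt2.L had 2481 in the cap, 298 in the vegetal explant, 1801 dorsally and 1608 ventrally. The Hippo pathway factor tead4.S, placed in the same list, had 536 and 770 in the cap and 83.4 and 143 in the vegetal explant. The gene camk2g.S, a calcium and calmodulin dependent kinase, is represented by 23 probe sets, of which 18 entered. All 18 were higher in the vegetal explant, by 2.59-fold to 9.34-fold. As for every gene, probe sets with the same symbol count as 1 gene. Of the 23, 16 have names ending in _x_at, which marks probes that may match other transcripts.

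Among genes of the membrane list, tmem150b.L lay under the floor in the cap and had 961 in the vegetal explant, 266 dorsally and 50.8 ventrally, and cmtm8.L had 416 in the cap, 6516 in the vegetal explant, 5574 dorsally and 4449 ventrally. On the cap side tmem192.L had 3999 in the cap and 504 in the vegetal explant, and the epithelial membrane protein gene emp2.L had 631 and 112. Of 79 measured genes 10 were higher in the cap and 13 in the vegetal explant. Of 30 measured cilia genes 1 was higher in the cap and 6 in the vegetal explant, or 1 and 3 with centred arrays. The intraflagellar transport gene ift27.L had 91.8 in the cap and 403 in the vegetal explant, and a second gene linked to that transport, ttc30a.S, had 670 and 209.

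Of 2541 measured genes outside the lists 168 were higher in the cap and 242 in the vegetal explant. Over all 4892 measured genes the counts were 356 and 527. The largest on the cap side were MGC68910 (at least 44.6-fold), ckap4.S (at least 36.1-fold), degs3.L (at least 18.3-fold), xepsin.L (at least 15.3-fold), mid1ip1.L (14.7-fold) and olfm4.L (at least 13.5-fold). The gene degs3.L is named for a sphingolipid desaturase, with 451 in the cap, a signal under the floor in the vegetal explant, 132 dorsally and 144 ventrally. A serine protease gene of the embryonic epidermis, xepsin.L, had 378 in the cap, a signal under the floor in the vegetal explant, 74.2 dorsally and 56.5 ventrally, and its copy xepsin.S was dim on all arrays. On the vegetal side the early endoderm gene darmin.L had 2298, with 252 dorsally and 85.4 ventrally, and the peroxisomal oxidase gene hao1.L had 1654, with 216 and 166. Both lay under the floor in the cap.

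Xenopus laevis carries most genes in 2 homeologous copies, .L and .S, which gave a second reading of many calls through other probes. In 576 pairs both copies were measured, and in 150 at least 1 copy was called. Both copies were called the same way in 43 pairs, 17 for the cap and 26 for the vegetal explant. Opposite calls occurred in 3 pairs, slc48a1, tmpo and pkp3. In the other 104 pairs 1 copy was called, and the second had the same sign in 76 and lay within 1.2-fold in 32. Probe sets of near-identical copies can share target sequence, so the pairs are not fully separate measurements. The entry rule also shaped these counts. A copy dim in both explants was left out, such as casp10.S with 67.4 in the cap and 86.1 in the vegetal explant. A copy high in 1 explant entered through that side. The same holds for second probe sets, so how often the readings agree is no independent support for the calls. Genes with 2 probe sets that entered gave a similar picture: of 139 with a call 122 had the same sign on both and 50 were called on both. The SD of the difference between such probe sets was 0.73 on the log2 scale over 525 genes. Most called genes had no such second reading, since 793 of the 883 had only 1 probe set that entered.

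The pairs with the largest gap between copies were elf1, ckap4, rfk, timm8b, krt12.4 and wdr83os. The endoplasmic reticulum membrane gene ckap4.S had 891 in the cap and lay under the floor in the vegetal explant, while ckap4.L had 304 and 293. Riboflavin kinase showed the reverse side, with rfk.S under the floor in the cap and at 603 in the vegetal explant, and rfk.L at 199 and 190. For krt12.4 both copies were on the cap side, by at least 98.1-fold for .L and at least 7.47-fold for .S, and the smaller bound belongs to the dimmer copy, whose cap signal was 184.

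**Figure D3:**
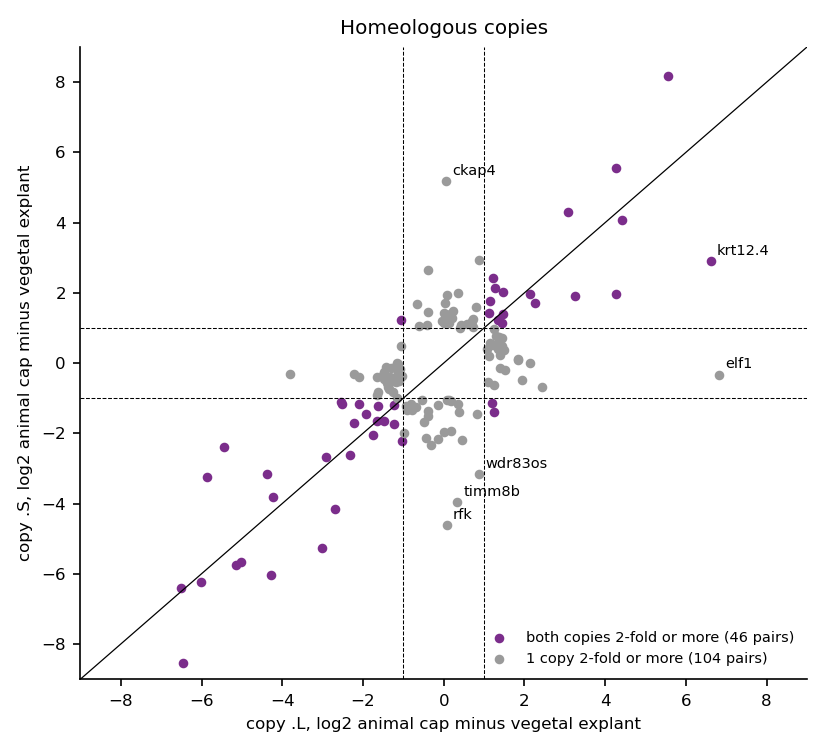
Log2 difference, animal cap minus vegetal explant, of the .L copy (horizontal) and the .S copy (vertical) for the 150 homeologous pairs with at least 1 copy called; dashed lines mark 2-fold and the solid line equality. Both copies are called in 46 pairs, 43 of them the same way and 3 with opposite calls; the same-way pair krt12.4 lies 3.72 on the log2 scale off equality, and the 6 pairs with the widest gap are named.

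The marginal zone arrays entered the choice of genes only through the floor and the entry level, which were taken over all 4 arrays. They show where each called gene lies relative to the poles. A position of 1 means the level of the cap and 0 the level of the vegetal explant on the log2 scale, so both ends of the scale come from the arrays that made the call. For genes higher in the cap the median position was 0.76 dorsally and 0.80 ventrally. For genes higher in the vegetal explant it was 0.72 and 0.75. On both sides, then, most genes had marginal zone levels nearer to the cap. These were 289 of 356 cap genes dorsally and 313 ventrally, and 390 and 396 of 527 vegetal genes. Such counts include genes beyond the cap level: 61 cap genes dorsally and 63 ventrally, and 99 and 90 vegetal genes. Beyond the vegetal level lay 10 cap genes dorsally and 2 ventrally, and 41 and 22 vegetal genes. Of the vegetal genes with a 4-fold gap or more, 87 of 182 were nearer to the cap in both marginal zones and 55 were nearer to the vegetal explant in both. The vegetal array is also the one with the highest GAPDH ratio, and the part of that in these positions was not tested.

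**Figure D4:**
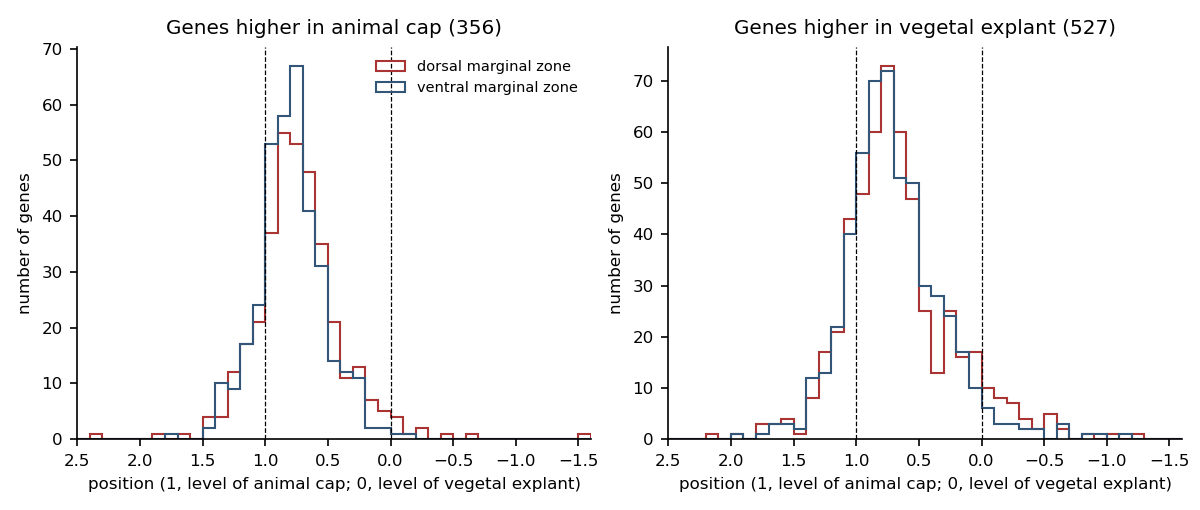
Position of the dorsal and ventral marginal zones relative to the poles, for 356 genes of the cap side (left) and 527 of the vegetal side (right). On the log2 scale, 1 is the level of the animal cap and 0 that of the vegetal explant. Bars count genes, and both distributions peak between 0.7 and 0.9, with a tail to the vegetal end among the vegetal genes.

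The position varied between the lists of vegetal genes. Among the 10 vegetal Wnt pathway genes the median dorsal position was 0.13, among the 25 homeobox genes 0.25 and among the 5 forkhead genes 0.05. These medians were nearer to the vegetal level, but members differed. Dorsally 2 of the 10 Wnt, 9 of the 25 homeobox and 1 of the 5 forkhead genes were nearer to the cap. Among the 13 vegetal cell cycle genes the median dorsal position was 0.77, among the 6 lipid genes 0.89 and among the 10 mitochondrial genes 0.90. The ventral position of the forkhead genes was 0.96, and 3 of these 5 were 2-fold or more higher dorsally than ventrally. Among cap genes 26 of 356 were 2-fold or more higher ventrally than dorsally and 5 dorsally, including 4 of the 6 keratin genes on the ventral side. Among vegetal genes 22 of 527 were 2-fold or more higher ventrally and 40 dorsally. The same shares over all measured genes were not computed, so these counts have no background beside them.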

How the data were processed

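Total RNA of 4 explants was measured on 1 Affymetrix-type array each. Per the labels' protocols, RNA was treated with DNase I, column-purified, and amplified and biotin-labelled from 100 ng with the Ovation system. The values are the deposited linear intensity signals. How they were summarised and scaled was not given in the sources used here. Samples were grouped by title. The number of arrays limits the precision.

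The 120 control probe sets were left out. Floor and entry level were the 20th and 50th percentiles of all values of the 4 arrays, and a call was a 2-fold difference. Array medians lay within 0.21 of each other (log2), less than the 0.3 that would have led to centring, so no scaling was added. The platform annotation gave 9304 probe sets with 1 symbol, 195 with several and 5992 with none, and only the first were named; 9227 identifiers matched the RefSeq gene table. Probe sets of a gene that entered were averaged as log2 signals. No genome build is named, so no coordinates are given, and promoter motifs were not analysed here.

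The 46 function lists are symbol patterns. Patterns, members and named genes were chosen with earlier results of these data known, and 141 of 3800 matched symbols were removed after their values were seen, because their function lay outside the list. Of the measured genes 2351 are in a list, 38 of them in several. Named genes were up to 3 per list and side, largest first, the 6 largest in no list, their homeologous copies, 6 pairs with the widest gap, and the probe sets next to the limit. No test was run, since there is 1 array per explant. Scripts were tested on simulated data and used Python 3.11.15, numpy 2.4.6, pandas 2.3.3, scipy 1.17.1 and matplotlib 3.10.9. Alternatives were other scalings, floors, entry levels, fold limits, probe set classes and the brightest probe set of a gene.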

Additional observations from a re-analysis of the deposited data

How the results depend on the processing

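With arrays centred on their medians the cap share of called probe sets was 59.2%, with hybridisation control scaling 47.6% and with quantile normalization 50.4%, against 43.8% as deposited. An entry level at the 75th percentile left 404 probe sets higher in the cap and 429 in the vegetal explant (share 48.5%), and 208 and 246 genes. Without an entry level the vegetal count was 1693 and the cap share 38.4%. At a 4-fold limit there were 235 and 371 probe sets (share 38.8%), and 112 and 182 genes. The other overall counts stayed within 1.5 times. The larger side changed in 4 of 46 lists with centred arrays, in 4 with the 75th percentile and in 3 without an entry level. A list with equal counts before or after was not counted as changed, so these numbers leave out moves from or to a tie. With centred arrays the tied cell cycle list went from 13 and 13 to 22 in the cap and 7 vegetally. The tied aminoacyl-tRNA synthetase list stayed at 1 and 1. The median of the forkhead list reversed to 1.96 with the 75th percentile, against -1.35 as reported, with fewer genes measured. None of the 265 genes that the naming rule gave past 2-fold changed sign under an alternative that measured it. The median probe set difference was -0.01 as deposited and 0.21 with centred arrays (log2), a small shift beside 2-fold gaps. A change of sign was therefore hardly possible, and its absence says little. With centred arrays 251 of 264 stayed past 2-fold. The lower bounds move with the floor. No paired analysis was possible because each explant has 1 array.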
